A study of Homo sapiens with 6 samples.

Results

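The annexins are a family of cytosolic proteins, and 10 of their genes (ANXA1 to ANXA8, ANXA10 and ANXA11) were followed in the transcriptome of COV434 cells with and without reexpressed BRG1. They were chosen by gene symbol, and each of the 10 matched 1 row of the 19899 genes in the table of estimated counts. COV434 is an established line of ovarian tumor cells, which the study treats as SCCOHT, a rare ovarian cancer of hypercalcemic type. BRG1 is the product of SMARCA4 and drives nucleosome movement by the SWI/SNF complex. Parental cells were used throughout; the 3 Control samples received the plasmid pCDNA3-neo and the 3 BRG1 samples received PBJ5-BRG1. Cells of both groups also received pBABE-puro, which carries puromycin resistance, were put on 2 to 3 µg/ml puromycin after 24 hours, and were collected after 3 days of selection. The model is 1 cell line with a transient plasmid, and the SMARCA4 values of BRG1 samples include plasmid transcripts. The replicates are called biological in the series description, and numbered 1 to 3 in each group.

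Annexins bind membranes that carry acidic phospholipids, phosphatidylserine above all, when calcium rises. They have a conserved core built from repeated calcium-binding units and a variable N-terminal tail, which holds binding sites for partners such as S100 proteins. They are known for roles in membrane repair, exocytosis, endosome traffic and the control of inflammation, and ANXA1 and ANXA2 are abundant in many epithelia.

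With BRG1, 6 of the 10 annexin genes rose and none fell. ANXA3 and ANXA8 went from a few estimated counts in all Control samples together to 1990 and 278 in the BRG1 samples together, ANXA1 rose 14.2-fold and ANXA2 5.23-fold in the ratio of group means, and ANXA4 and ANXA5 rose 1.91-fold and 2.03-fold. ANXA7 and ANXA11 were well expressed and did not pass the test, ANXA6 was barely detected, and ANXA10 was not detected in any BRG1 sample. Calls are genes under 0.05 by DESeq2 after Benjamini-Hochberg adjustment over the whole table. Among all genes tested 11% were called higher and 1.84% lower, whereas among the annexins these were 6 and 0 of 10. No annexin was lower at an unadjusted p under 0.05 (0 genes), and edgeR, with backgrounds of 9.57% higher and 1.02% lower, called 5 higher and 0 lower. Adding the replicate number as a block gave 6 higher and 0 lower under either tool. The backgrounds were then 13.4% higher and 6.62% lower for DESeq2, and 13.7% and 5.68% for edgeR. The median log2 fold change was 2.15 over the 9 annexins with a fold, and -0.01 over all genes tested. The value of 2.15 is that of ANXA6, which was barely detected and not called. The annexins next to it in order were ANXA5 (1.02) and ANXA2 (2.39).

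The libraries held between 29699741 and 63613710 estimated counts, and BRG1 sample 3 was the shallowest. SMARCA4, the transfected gene, was at 1439, 1676 and 1538 normalized counts (estimated counts divided by a DESeq2 size factor) in Control samples 1 to 3. It was at 108655, 79075 and 78589 in BRG1 samples 1 to 3, which is 5.84 ± 0.18 on the log2 scale (standard error; DESeq2 adjusted p 5.43e-216). SMARCA2, the other SWI/SNF ATPase gene, was low in both groups, with overlapping means of 16.4 ± 10.9 (Control) and 24.1 ± 15.9 (BRG1; SD, n = 3; DESeq2 adjusted p 0.831). Of 6 granulosa markers, FOXL2 and FSHR were at 3 counts or fewer in every sample. Another, CYP19A1, was detected in Control (mean of 23.3 normalized counts) and called higher with BRG1 (321.6, DESeq2 adjusted p 8.72e-20). AMH was far higher than CYP19A1 in Control (mean of 295.4 normalized counts). It was not called with BRG1 (407.7, DESeq2 adjusted p 0.373). The remaining markers, INHA and NR5A1, were not called either.

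The regulatory sequences of the annexins that the results turn on are shown from RefSeq (GRCh38.p14), as windows from 250 bases before to 50 bases after a transcription start. A window was found for 9 of the 10 genes. The windows of ANXA1, ANXA2 and ANXA3 are printed because these genes rose most among those with a window, and that of ANXA7 because its groups overlapped. Capitals mark the AP-1 letters TGANTCA, which are searched because the study links AP-1 to BRG1, and the TATA box letters TATAAA, each on both strands.

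ANXA1 (chr9:73151615-73151914, plus strand): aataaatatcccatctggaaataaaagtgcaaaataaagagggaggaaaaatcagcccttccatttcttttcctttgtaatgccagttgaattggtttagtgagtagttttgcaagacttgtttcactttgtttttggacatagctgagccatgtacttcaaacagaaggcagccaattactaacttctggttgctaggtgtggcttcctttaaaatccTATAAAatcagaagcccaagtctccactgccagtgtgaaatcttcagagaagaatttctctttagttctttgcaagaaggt
ANXA2 (chr15:60397937-60398236, minus strand): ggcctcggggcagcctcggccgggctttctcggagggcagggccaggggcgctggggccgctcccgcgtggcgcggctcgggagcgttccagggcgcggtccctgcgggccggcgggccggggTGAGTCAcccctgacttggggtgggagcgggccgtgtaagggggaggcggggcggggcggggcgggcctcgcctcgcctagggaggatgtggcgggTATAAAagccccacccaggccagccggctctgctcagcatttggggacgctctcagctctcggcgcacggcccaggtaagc
ANXA3 (chr4:78551520-78551819, plus strand): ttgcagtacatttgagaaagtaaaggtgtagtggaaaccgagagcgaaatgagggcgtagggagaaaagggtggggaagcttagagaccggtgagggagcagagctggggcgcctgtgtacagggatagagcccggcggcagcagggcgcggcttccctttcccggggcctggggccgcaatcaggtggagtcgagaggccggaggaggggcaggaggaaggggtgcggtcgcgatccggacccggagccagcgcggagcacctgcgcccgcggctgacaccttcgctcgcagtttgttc
ANXA7 (chr10:73414009-73414308, minus strand): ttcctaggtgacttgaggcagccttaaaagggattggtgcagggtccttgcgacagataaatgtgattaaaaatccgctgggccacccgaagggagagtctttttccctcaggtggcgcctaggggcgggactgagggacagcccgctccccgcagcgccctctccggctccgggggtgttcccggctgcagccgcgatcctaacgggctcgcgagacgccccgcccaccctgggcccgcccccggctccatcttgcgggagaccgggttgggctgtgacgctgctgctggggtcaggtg

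Together the 9 annexins had 13 windows. The AP-1 letters were in 1 of these, that of ANXA2, where they began at position -127 from the transcription start. These letters are in 7.71% of all 35116 RefSeq windows. The letters TATAAA were in 1 window each of 4 annexins. They began at position -31 in ANXA1 and ANXA2, -29 in ANXA10 and -61 in 1 of 3 windows of ANXA11. Of all RefSeq windows 11.53% hold them. Of these 4 genes ANXA1 and ANXA2 were called, and ANXA10 and ANXA11 were not. In base composition the ANXA1 window was 37.7% G and C with 0 CpG pairs, whereas the ANXA2 window was 76.0% with 32. The windows of ANXA3 (25 CpG) and ANXA7 (23 CpG) held neither motif. A match in these windows is a description of the letters and not of a bound site.

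ANXA1 (chromosome 9, 73151865 to 73170393, plus strand, 13 exons in the canonical transcript, GRCh38) encodes a protein known to restrain inflammation through formyl peptide receptors. Its normalized counts were 713, 623 and 666 in Control samples 1 to 3, and 13721, 9674 and 4958 in BRG1 samples 1 to 3. The groups did not overlap, and the lowest BRG1 sample, number 3, was still several times above the highest Control. On the log2 scale the change was 3.83 ± 0.33 (standard error; DESeq2 adjusted p 1.04e-28; edgeR adjusted p 0.000398). Within replicate numbers 1 to 3 the fold was 19.3, 15.5 and 7.45.

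ANXA2 (chromosome 15, 60347134 to 60402883, minus strand, 13 exons) encodes a protein that joins membranes to actin and, as a complex with S100A10, binds plasminogen at the cell surface. Its normalized counts were 5015, 5485 and 4409 in Control and 39746, 24970 and 13333 in BRG1 samples. All BRG1 samples were above all Control samples, and the order among BRG1 samples was that of ANXA1. On the log2 scale the change was 2.39 ± 0.35 (standard error; DESeq2 adjusted p 2.06e-10; edgeR adjusted p 0.00368), and the fold within replicate numbers was 7.93, 4.55 and 3.02. Of the distinct 31-base words of its transcripts 7.94% also occur in another gene, mostly the processed pseudogene ANXA2P2, so a part of its reads cannot be placed with certainty.

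ANXA3 (chromosome 4, 78551747 to 78610451, plus strand, 13 exons), an annexin of neutrophils and of several epithelial tumors, held 2, 2 and 0 estimated counts in Control samples. In BRG1 samples it held 1212, 613 and 165, or 879, 509 and 246 normalized counts. Expression was thus barely detected without BRG1 and present in every library with it. The ratio of the summed counts, corrected for size factors, was 458 with a 95% interval of 179 to 1683 (exact, from 4 against 1990 counts, counting error only). DESeq2 gave an adjusted p of 6.83e-22 and edgeR 0.000466. The fitted log2 fold change was 8.62, and ran from 7.83 (without Control replicate 3) to 9.15 when a replicate was left out.

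ANXA8 (chromosome 10, 47460162 to 47484158, minus strand, 12 exons) is an annexin of stratified epithelia. It held 1, 0 and 1 estimated counts in Control samples and 190, 81 and 7 in BRG1 samples. BRG1 sample 3 stood far below the other two, though above each Control sample. The ratio of summed counts was 128 with a 95% interval of 35.1 to 1062 (exact, from 2 against 278 counts, counting error only), with a DESeq2 adjusted p of 8.49e-06 and an edgeR adjusted p of 0.00948. The fitted log2 fold change was 6.76, and ran from 5.89 (without BRG1 replicate 1) to 7.29 when a replicate was left out. ANXA8L1 is a near-identical copy on the same chromosome (46375627 to 46391784, plus strand). Of the 31-base words of ANXA8 transcripts 79.3% occur in another gene, and 86.5% of those of ANXA8L1 occur in ANXA8. ANXA8L1 held 0, 0 and 0 counts in Control samples and 91, 46 and 6 in BRG1 samples, at least 12.0-fold higher against a floor of 3 counts per library. How reads were divided between the copies is uncertain. With both summed to 1 gene, an alternative chosen after seeing the data, the DESeq2 adjusted p was 1.90e-07.

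ANXA4 (chromosome 2, 69644425 to 69827112, plus strand, 13 exons) encodes an annexin of secretory epithelia. Its normalized counts were 2502, 2467 and 2322 in Control and 5048, 4482 and 4415 in BRG1 samples. The increase was modest and even, with a fold of 2.02, 1.82 and 1.90 within replicate numbers. On the log2 scale the change was 0.94 ± 0.13 (standard error; DESeq2 adjusted p 7.0e-12; edgeR adjusted p 0.00100).

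ANXA5 (chromosome 4, 121667946 to 121696995, minus strand, 13 exons) encodes the annexin used as a probe for phosphatidylserine on dying cells. Its normalized counts were 2824, 2962 and 2425 in Control and 7833, 5687 and 3133 in BRG1 samples. The groups did not overlap, but BRG1 sample 3 lay only just above the highest Control sample. On the log2 scale the change was 1.02 ± 0.31 (standard error; DESeq2 adjusted p 0.0107), and the call was lost under edgeR (adjusted p 0.0738). With the replicate number as a block both tests called it (adjusted p 1.32e-05 with DESeq2 and 0.0116 with edgeR). The DESeq2 call without the block also depended on single libraries, with an adjusted p of 0.0574 without Control replicate 1, 0.0866 without Control replicate 3, 0.116 without BRG1 replicate 1 and 0.0741 without BRG1 replicate 2.

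**Figure D1:**
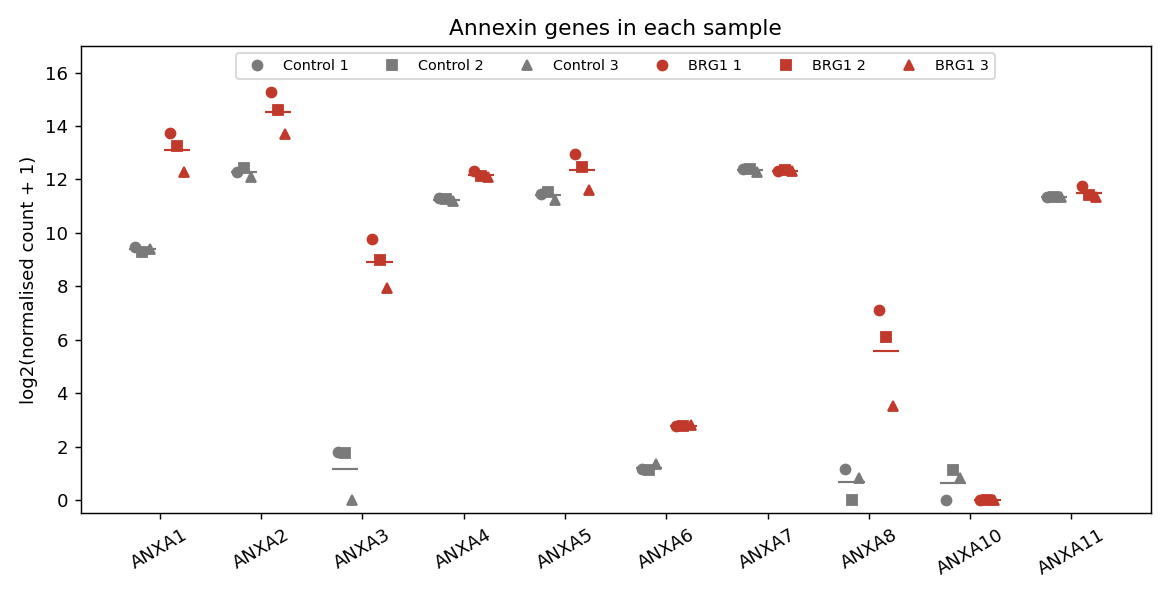
Normalized count of each annexin gene in each sample, as log2(normalized count + 1), with Control in grey and BRG1 in red, symbols for the replicate number and a bar at the mean of the 3 log2 values. ANXA1, ANXA2, ANXA3, ANXA4, ANXA5, ANXA6 and ANXA8 show no overlap between groups, while ANXA7 and ANXA11 do.

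The annexins that were not called fall into a well-expressed and a nearly silent pair. ANXA7 (chromosome 10, 73375101 to 73414076, minus strand) and ANXA11 (chromosome 10, 80150889 to 80205572, minus strand) encode the annexins with the longest N-terminal tails, which bind the calcium sensor PDCD6 and related proteins. ANXA7 had 5372, 5366 and 5011 normalized counts in Control and 5150, 5226 and 5099 in BRG1 samples. On the log2 scale the change was -0.03 ± 0.11 (standard error; DESeq2 adjusted p 0.952), and the groups overlapped. ANXA11 had 2576, 2624 and 2626 in Control and 3417, 2720 and 2566 in BRG1 samples. Only BRG1 sample 1 stood clearly apart, and on the log2 scale the change was 0.15 ± 0.16 (standard error; DESeq2 adjusted p 0.715).

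ANXA6 (chromosome 5, 151100706 to 151157815, minus strand, 26 exons), whose protein has a duplicated core, held 1, 1 and 2 estimated counts in Control and 8, 7 and 4 in BRG1 samples. The groups did not overlap, but the ratio of 4.37 had a 95% interval of 1.45 to 17.7 (exact, counting error only), and DESeq2 did not call it (adjusted p 0.357). ANXA10 (chromosome 4, 168092537 to 168187736, plus strand), an annexin of gastric epithelium, held 0, 1 and 1 counts in Control and 0 in each BRG1 sample, so no fold is given. Both were too low for the edgeR test.

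**Figure D2:**
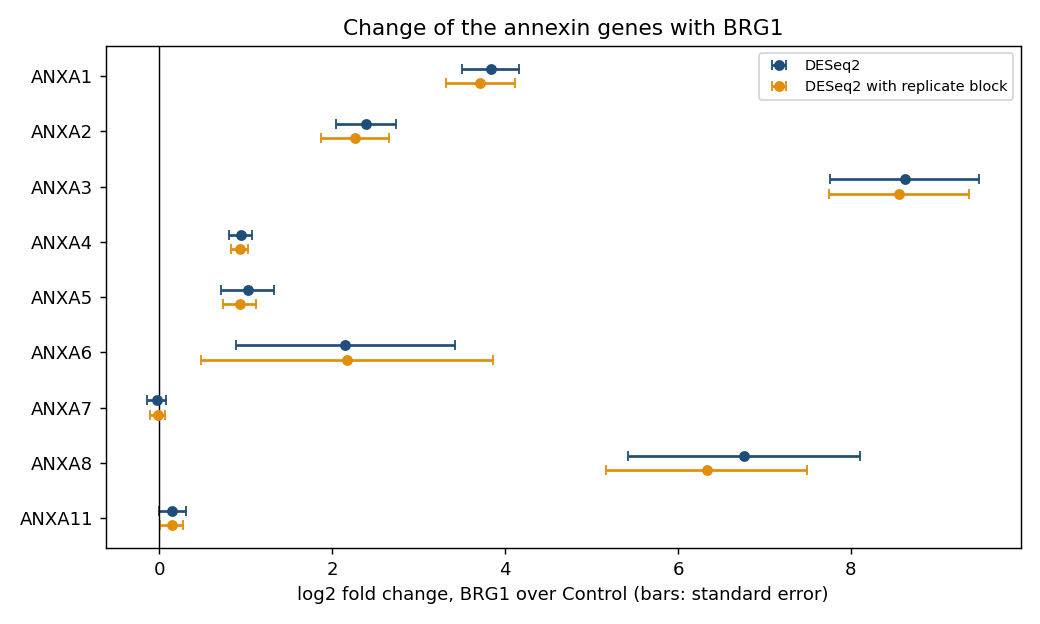
Log2 fold change of BRG1 over Control for 9 annexin genes (ANXA10 had no fold), from DESeq2 without and with the replicate number as a block; bars show the standard error. ANXA3 and ANXA8, whose Control counts are between 0 and 2, have the largest fitted values, and ANXA7 and ANXA11 lie near 0.

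Every BRG1 sample was above every Control sample in 7 of the 10 annexins, and every BRG1 sample was below in 0. Among all genes with an adjusted p the shares were 16.7% and 9.92%. The BRG1 samples were spread unevenly across the genes. The highest BRG1 sample was 2.77 times the lowest for ANXA1, 2.98 times for ANXA2, 3.57 times for ANXA3, 2.5 times for ANXA5 and 13.2 times for ANXA8, but 1.14 times for ANXA4 and 1.03 times for ANXA7. All 6 called annexins were highest in BRG1 sample 1 and lowest in BRG1 sample 3, an order that 68.4% of all genes called higher share. SMARCA4 was also highest in BRG1 sample 1, but was nearly equal in BRG1 samples 2 and 3 (79075 and 78589 normalized counts). The part of transfection level or of library depth in these differences was not tested. In bulk RNA, fewer expressing cells and less RNA per cell cannot be told apart.

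**Figure D3:**
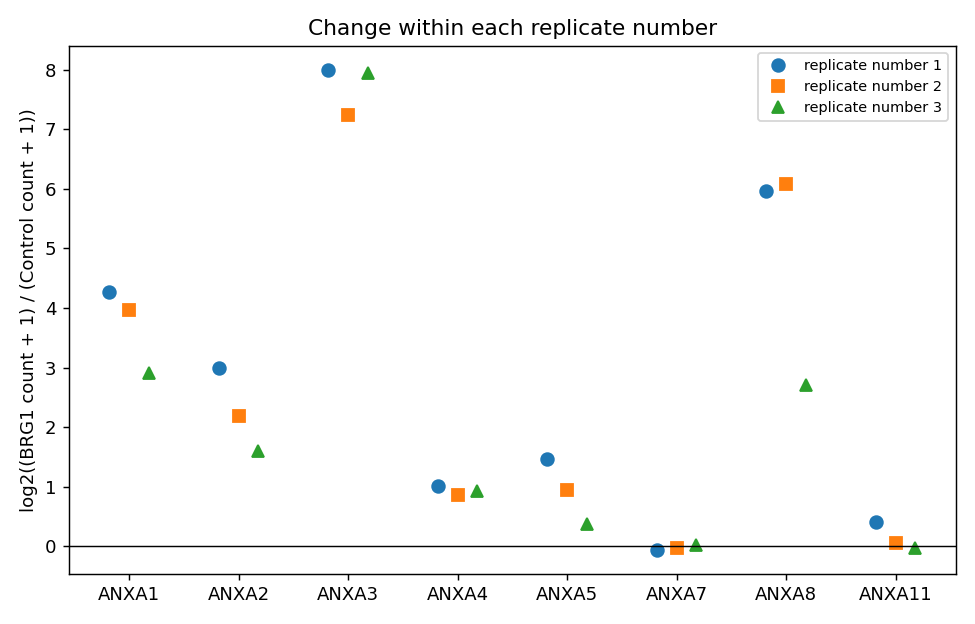
Log2 ratio of BRG1 to Control normalized counts, each with 1 added, for 8 annexin genes in the samples that share a replicate number. ANXA4 sits near 1 in all 3, ANXA7 near 0, and ANXA1, ANXA2 and ANXA5 have their smallest ratio in replicate number 3.

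To compare levels between genes, estimated counts were divided by the length of the GENCODE canonical transcript and scaled to the same sum in each sample, an approximation of TPM. The 1685 genes without such a length were left out. On that scale the 10 annexins summed to 397, 389 and 348 in Control samples and to 2165, 1496 and 868 in BRG1 samples. ANXA2 was highest in every sample, with means of 137 ± 13.8 (Control) and 800 ± 408 (BRG1; SD, n = 3). In Control it was followed by ANXA7 (92.4 ± 4.64), ANXA5 (71.8 ± 7.16), ANXA4 (39.4 ± 2.13), ANXA1 (20.5 ± 1.96) and ANXA11 (16.6 ± 0.321), and the values of these neighbors did not overlap across the 3 samples. The place of ANXA11 rests on its canonical length of 6734 bases, against 1401 for ANXA1. Its mean normalized count in Control was above that of ANXA1 (2609 and 667), so a shorter expressed transcript could raise the place of ANXA11.

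In BRG1 samples ANXA1 moved from the fifth to the second place, at 322 ± 150 approximate TPM. ANXA5 followed at 162 ± 69.0, ANXA7 at 100.8 ± 2.10 and ANXA4 at 83.7 ± 6.34. On this scale ANXA7 was at 88.0 to 97.2 in Control and 98.8 to 103 with BRG1, without overlap, though its normalized counts were flat. Small differences between groups on this scale can thus come from the scaling. The spread between BRG1 samples was wide enough that ANXA2 overlapped with ANXA1, ANXA1 with ANXA5, and ANXA5 with ANXA7, whereas ANXA7 and ANXA4 did not overlap. ANXA11 (20.6 ± 3.24) and ANXA3 (18.2 ± 10.6) also overlapped, and ANXA8 was at 1.71 ± 1.51. Within each single BRG1 sample ANXA2 was above ANXA1 and ANXA1 above ANXA5. The share of the summed annexin level held by ANXA1 went from between 4.78% and 5.85% in Control to between 19.3% and 22.2% with BRG1, and that of ANXA7 from between 23.6% and 25.3% to between 4.65% and 11.4%.

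**Figure D4:**
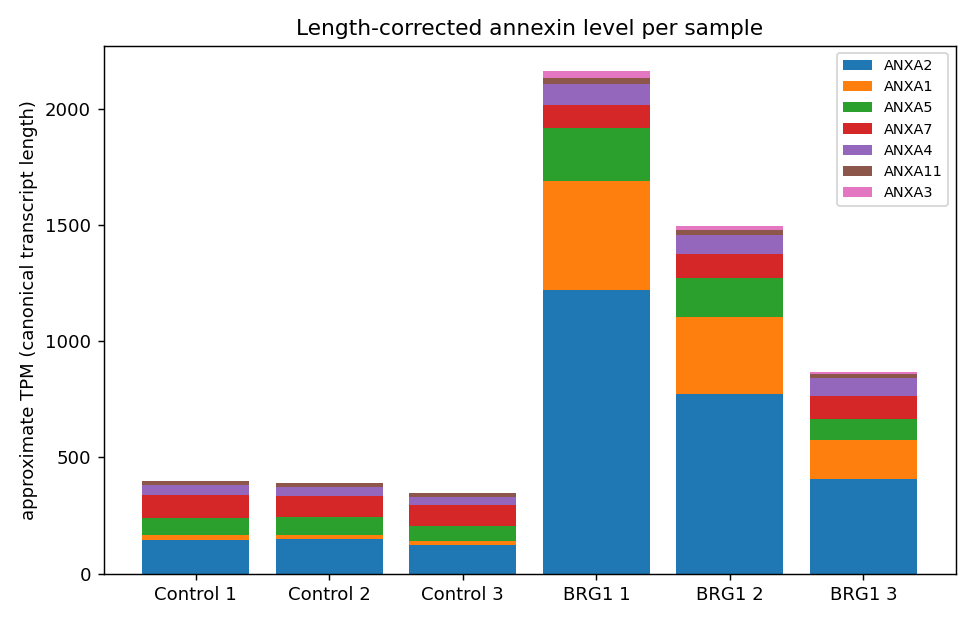
Approximate TPM of 7 annexin genes stacked per sample (the other members are too low to be seen). The bars rise from between 348 and 397 in Control to 2165, 1496 and 868 in BRG1 samples 1 to 3, with ANXA2 the largest and ANXA1 the second largest part of each BRG1 bar.

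Other genes of the family were read alongside. ANXA9 (chromosome 1, 150982249 to 150995634), an annexin with an altered core that binds calcium poorly, had 64.6, 41.0 and 64.4 normalized counts in Control and 216, 135 and 107 in BRG1 samples. It rose by DESeq2 (1.44 on the log2 scale, adjusted p 0.00218) and edgeR (adjusted p 0.0431), but not by DESeq2 without BRG1 replicate 1 (1.10, adjusted p 0.0711). ANXA13 (chromosome 8, 123680794 to 123737402), an intestinal annexin, held 0 counts in each Control sample and 19, 11 and 2 in BRG1 samples, at least 2.74-fold higher. Its DESeq2 call (adjusted p 0.0226) was lost with the replicate block (adjusted p 0.0850). It was also lost when any replicate other than BRG1 replicate 3 was left out, with DESeq2 adjusted p from 0.0562 to 0.407. ANXA2R, which encodes a receptor for ANXA2, had 406, 480 and 244 in Control and 238, 293 and 218 in BRG1 samples, which overlap (-0.59 on the log2 scale, DESeq2 adjusted p 0.246). Without Control replicate 3 it was called lower (-0.82, DESeq2 adjusted p 0.0149).

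Of 10 known binding partners 2 were called higher and 0 lower, against 11% and 1.84% of all genes tested, and their median log2 fold change was 1.48 over the 8 tested. Those above that median included the called S100A4 (4.79). They also included S100A10 (1.99) and S100A6 (4.64, DESeq2 adjusted p 0.149), both uncalled and near the floor. S100A6, named after its values were seen, held 0 counts in Control and 16 in BRG1 samples together. The well-expressed PDCD6 and SRI were at -0.15 and 0. AHNAK, a giant scaffold bound by ANXA2 and S100A10, had 13382, 10538 and 13081 normalized counts in Control and 43425, 27304 and 19454 in BRG1 samples (DESeq2 adjusted p 0.000154). S100A4, a small calcium-binding protein, rose from 4.96 ± 2.83 to 133 ± 69.1 (SD, n = 3; DESeq2 adjusted p 2.5e-12). S100A10, the classic partner of ANXA2, held 2, 0 and 3 estimated counts in Control and 4, 4 and 9 in BRG1 samples (DESeq2 adjusted p 0.511). S100A11, the partner of ANXA1, held 0 in every sample except BRG1 sample 2, where it held 5. PDCD6 and SRI, partners of ANXA7 and ANXA11 chosen after their values were seen, averaged 4885 ± 318 and 3512 ± 101 without BRG1 and 4390 ± 290 and 3519 ± 397 with it (SD, n = 3). The receptors for ANXA1 were hardly detected. FPR1 held 0 counts in Control and 0, 5 and 1 in BRG1 samples, FPR2 held 0 in all 6 samples, and FPR3 held 2 counts in 1 Control sample. Of these receptors and the phospholipases A2, an enzyme family that annexins inhibit in vitro, 1 of 7 genes was called higher and 0 lower (background 11% and 1.84%), with a median log2 fold change of -0.07 over the 4 tested. The called gene, PLA2G4C, rose from 45.5 ± 23.7 to 180 ± 18.0 (DESeq2 adjusted p 0.000127).

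Of 5 genes of the plasminogen system, which the ANXA2 complex recruits, 2 were called higher and 0 lower. The protease inhibitor SERPINE2 rose from 2313 ± 758 to 10639 ± 2765 normalized counts, and the activator PLAT from 4.98 ± 2.01 to 85.0 ± 70.4 (SD, n = 3; DESeq2 adjusted p 9.76e-12 and 5.85e-06). PLAU and PLAUR, named after their values were seen, were not called (log2 fold change 3.07 and 0.28, DESeq2 adjusted p 0.0933 and 0.851). PLAU held 6 estimated counts in Control and 68 in BRG1 samples together, and its groups overlapped. In the membrane repair list 6 of 19 genes were called higher and 0 lower, and 5 and 0 by edgeR. MYOF, a ferlin that acts in repair and vesicle fusion, had 1384, 1197 and 977 normalized counts in Control and 15128, 7998 and 4152 in BRG1 samples. The calpain CAPN2 and the membrane-bending EHD2 had log2 fold changes of 1.04 and 1.93 (DESeq2 adjusted p 0.000629 and 1.26e-12). The call of EHD1 (log2 fold change 1.27, DESeq2 adjusted p 0.00502) was lost under edgeR (adjusted p 0.0676) and with the replicate block (DESeq2 adjusted p 0.0779), whereas edgeR with the block called it (adjusted p 0.0299).

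Among scramblases and flippases, which set the exposure of phosphatidylserine, 3 of 12 genes were called higher and 0 lower, and edgeR called 2. The scramblases PLSCR1 and PLSCR4 had log2 fold changes of 1.91 and 1.47 (DESeq2 adjusted p 1.27e-09 and 0.00011), and ANO6 one of 0.47 (DESeq2 adjusted p 0.0475, edgeR adjusted p 0.0811). Among the copines and other C2 domain proteins, which bind the same lipids by a different fold, 3 of 18 were called higher and 0 lower, and edgeR called 1. These counts are near the background shares. SYTL2, a Rab27 effector in secretion, rose from 182 ± 41.6 to 1601 ± 751 (SD, n = 3; DESeq2 adjusted p 7.27e-15). SYTL4 changed by 0.94 on the log2 scale (DESeq2 adjusted p 0.00582, edgeR adjusted p 0.0595), and edgeR with the replicate block called SYTL4 and ANO6 (adjusted p 0.00773 and 0.0165). RPH3A held 1 count in Control samples together and 32 in BRG1 samples, and its DESeq2 call (adjusted p 0.0206) was lost with the replicate block (adjusted p 0.0552). With that block CPNE3 and SYT11, chosen after their values were seen, were called lower (log2 fold change -0.42 and -0.54, DESeq2 adjusted p 0.00341 and 0.000662). Against the backgrounds of 11% higher and 1.84% lower, the median log2 fold changes were 2.63, 0.23, 0.07 and 0.37 in these 4 lists, over the 4, 18, 11 and 17 genes tested.

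**Figure D5:**
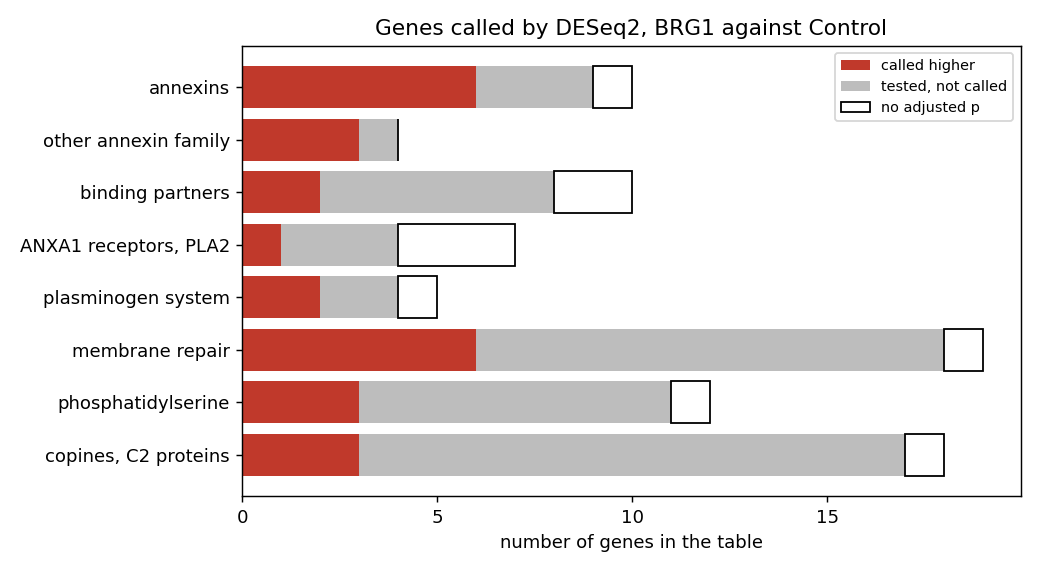
Number of genes in the annexin set and in each related list that DESeq2 called higher (red), tested without a call (grey) or left without an adjusted p (white); none was called lower. The annexin bar holds 6 called of 10, and the membrane repair bar 6 of 19.

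The 3 genes whose pattern over the 6 samples was most like that of ANXA2, by Pearson correlation of log2(normalized count + 1), were ITPK1, BCL2L1 and CDC42EP3 (r = 0.998 for each). Of 11679 genes compared 651 had a correlation above 0.95. This is a description, and the 6 points share the 2 groups.

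Some markers of other cell types were called higher by DESeq2 and none lower, against backgrounds of 11% higher and 1.84% lower. Of 5 endothelial markers 3 were called higher (CDH5, VWF and TEK), and their summed level was 37.5 to 55.7 CPM (counts divided by library size) in Control and 139 to 154 in BRG1 samples. Of 6 leukocyte markers LYZ was called (1 gene), with summed levels of 39.9 to 62.1 and 53.9 to 85.3, and CD3E stayed at 3 counts or fewer. Of 6 stromal markers PDGFRA was called (1 gene), with 113 to 188 and 92.6 to 211, and of 6 granulosa markers CYP19A1 (1 gene), with 6.29 to 10.1 and 14.2 to 19.97. By edgeR as many were called in each list (background 9.57% higher and 1.02% lower). A single call in a list of 6 is near the background share. The part of these markers in the annexin changes was not tested.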

How the data were processed

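RNA-seq libraries of COV434 cells (3 Control, 3 BRG1) were unstranded, with paired reads of 78 bases. Alignment by the authors used STAR 2.5.3a and quantification Salmon 0.8.2, on hg38 with GENCODE. For each gene symbol the authors deposited 1 estimated count per sample, which tximport had built from TPM scaled by transcript length and library size. Salmon shares out reads that fit several genes, so near-identical copies are uncertain, and antisense reads are not separated.

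The estimated counts were rounded. BRG1 was compared with Control by the Wald test of DESeq2 1.42.0 in R 4.3.3, the tool of the study, over 18096 genes with a count, with no covariate. Genes to which DESeq2 gave no adjusted p-value were kept without one. The edgeR 4.0.16 quasi-likelihood test and limma 3.58.1 voom were alternatives, as were TMM size factors, filters, the replicate block and leaving out each replicate. These fits were run on simulated data with 200 changed genes and no replicate effect, and leaving out a replicate was tried there for a single sample. The share of false calls there was several times the 0.05 threshold with DESeq2 and near it with edgeR. More genes were called in the data (1764 higher and 294 lower), so that share may differ here. Some DESeq2 calls, in the background shares and lists too, are still likely false, and edgeR values stand beside those of the annexins. Samples sharing a replicate number deviated together from their group means (correlations of 0.341, 0.298 and 0.459 over 14220 genes). The numbers were therefore taken as pairs in the replicate block and in the folds within replicate numbers. The main test did not use the pairing. Positions and lengths came from GENCODE release 44 (GRCh38), promoters from RefSeq.

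The genes named were all annexins, the other family genes and, of each list, up to 4 called genes with the highest mean count, with S100A10, S100A11 and the formyl peptide receptors whatever their values. Members and lists were chosen with earlier results of these data known. The plasminogen list leaves out 1 gene that is not reported here. A floor of 3 counts per library and 95% exact intervals cover counting error only.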

Additional observations from a re-analysis of the deposited data

How the results depend on the processing

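SMARCA4 rose under all alternatives (log2 fold change 5.67 to 5.92 when a replicate was left out). The annexins called higher (6) ran from 5 to 6 in every alternative run, and those called lower stayed at 0. ANXA1, ANXA2, ANXA3 and ANXA4 kept their calls in every alternative run, as did ANXA8 in those that tested it; the filter of 10 counts in 3 samples left ANXA8 and ANXA6 out. ANXA6 and ANXA10 were not tested by edgeR or limma-voom. The ANXA5 call was lost under edgeR (log2 fold change 1.00), limma-voom (0.95) and at an adjusted p under 0.01 (1.02), and its log2 fold change ran from 0.69 to 1.31 when a replicate was left out. With the replicate block its log2 fold change was 0.93 (0.92 with edgeR and the block), and DESeq2 with the pairing made the same calls of the 10 annexins as without it. The number of genes called lower over the table (294) fell to 146 under edgeR, 169 under limma-voom and 130 when 0.01 was required. The block raised it to 1035 (DESeq2) or 809 (edgeR). Leaving out a replicate gave 117 (BRG1 replicate 2 left out) to 596 (BRG1 replicate 3 left out). Genes of the annexin pathway lists called lower (0) were 2 with the block under either tool and ran from 0 to 3 (without BRG1 replicate 3). The causes were not tested. ANXA6 and ANXA10 held 8 counts or fewer in every sample. ANXA6 was not called in any run that tested it, though its groups did not overlap. A change in ANXA10 was not detectable at this depth.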
